A study of Mus musculus with 6 samples.

Results

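The genes described here are those of the glycine cleavage system (Gldc, Amt, Gcsh and Dld), those that make and attach its lipoyl cofactor (Lias, Lipt1 and Lipt2) and Nicn1, the gene next to Amt. They were taken by gene symbol, by a rule that uses no measured value, and all 8 were found among the 24346 genes of the deposited tables. RNA was sequenced from 3 samples of parental CT26.mMR1 cells, a CT26 mouse colorectal tumor line made to overexpress mouse MR1 by retroviral transduction, and from 3 samples of M8 cells, a mutant of that line obtained with the mutagen N-ethyl-N-nitrosourea (ENU). The labels read CT26_cl9 and CT26_cl9_M8 and do not name MR1, so the match to CT26.mMR1 cells rests on the study's description. Both lines carry the MR1 transgene, and M8 is a single mutant line that the study picked because it activated the MAIT cell reporter line 6C2 more strongly and had more MR1 on its surface. The comparison asks which transcripts of this pathway differ between M8 and the cells it came from. A difference between the lines can therefore belong to this 1 mutant line, and mutation, clonal drift and selection cannot be told apart.

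The glycine cleavage system is a mitochondrial enzyme made of loosely bound proteins that splits glycine into carbon dioxide and ammonia and passes its remaining carbon to tetrahydrofolate, giving 5,10-methylene tetrahydrofolate. The P protein (Gldc) takes off the carboxyl group, the H protein (Gcsh) carries the aminomethyl group on a lipoyl arm, the T protein (Amt, aminomethyltransferase) releases ammonia and loads the carbon onto tetrahydrofolate, and the L protein (Dld, dihydrolipoamide dehydrogenase) reoxidizes the arm. In making that arm, Lipt2 moves an octanoyl group onto the H protein, Lias inserts sulfur into it, and Lipt1 passes the finished lipoyl group on to the 2-oxoacid dehydrogenase complexes. The system is most active in liver, kidney and brain. Nicn1 encodes nicolin 1, a protein found with the tubulin polyglutamylase complex, and has no known role in glycine cleavage.

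Values are FPKM, reads scaled to transcript length and to the mapped reads of the library, so that levels can be compared between genes. The tables summed to 593635 to 626241 in the parental samples and to 622529 to 630264 in M8, and the relative depth read from the steps of low values was 0.948 to 1.07 in parental and 0.772 to 0.875 in M8, with parental replicate 1 set to 1. Vim was at 1751 to 2137 FPKM, whereas 4 of 8 epithelial markers (Epcam, Cdh1, Krt19 and Cdx2) were listed at 0 in all 6 samples, although Krt18 (24.5 to 38.4 FPKM) and Krt20 (10.8 to 19.8 FPKM) were present. Mr1 was at 1034 to 1139 FPKM in both lines. M8 replicate 1 stood apart in transcripts of hepatocytes, cells with a high glycine cleavage activity: 4 hepatocyte markers summed to 10.2 FPKM there and to 1.35 to 2.40 FPKM in the other 5 samples, and Alb was at 4.31 FPKM (175 reads) against at most 4 reads elsewhere. Results are given with and without that sample where it bears on them.

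Nicn1 and Amt lie head to tail on the plus strand of mouse chromosome 9 (GRCm38). Nicn1 spans 108290443 to 108296498 and Amt 108296905 to 108302302, which leaves 406 bases between them. Tcta follows on the minus strand after a further 652 bases, and Rhoa starts directly beyond it. Upstream stretches from RefSeq (GRCm38.p6) are shown for these neighbours and for Gcsh, Dld and Lipt2, the members for which the samples of the lines did not overlap. Each stretch is the 250 bases that precede the annotated start, read 5′ to 3′ on the strand of the gene, and capitals mark CCAAT or its reverse complement ATTGG.
Nicn1 (chr9:108290193-108290442, plus strand): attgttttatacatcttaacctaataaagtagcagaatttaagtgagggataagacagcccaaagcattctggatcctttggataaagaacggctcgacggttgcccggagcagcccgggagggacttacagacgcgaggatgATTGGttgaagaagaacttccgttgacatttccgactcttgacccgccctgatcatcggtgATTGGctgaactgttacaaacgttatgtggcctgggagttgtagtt
Amt (chr9:108296655-108296904, plus strand): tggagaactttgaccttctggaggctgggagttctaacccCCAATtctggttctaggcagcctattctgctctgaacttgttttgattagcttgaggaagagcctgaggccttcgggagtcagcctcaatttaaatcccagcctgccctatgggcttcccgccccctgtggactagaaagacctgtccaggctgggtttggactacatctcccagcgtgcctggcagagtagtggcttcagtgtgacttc
Gcsh (chr8:116993499-116993748, minus strand): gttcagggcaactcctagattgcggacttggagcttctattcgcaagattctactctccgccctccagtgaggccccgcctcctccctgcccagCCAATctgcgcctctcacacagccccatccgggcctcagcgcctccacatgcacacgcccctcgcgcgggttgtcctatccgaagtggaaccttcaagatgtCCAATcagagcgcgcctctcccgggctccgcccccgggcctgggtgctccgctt
Dld (chr12:31351472-31351721, minus strand): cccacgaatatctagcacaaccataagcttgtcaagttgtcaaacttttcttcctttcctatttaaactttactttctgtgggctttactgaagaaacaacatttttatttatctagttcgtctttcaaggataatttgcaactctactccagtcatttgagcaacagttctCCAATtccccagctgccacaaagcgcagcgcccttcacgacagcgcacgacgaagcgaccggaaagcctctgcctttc
Lipt2 (chr7:100159027-100159276, plus strand): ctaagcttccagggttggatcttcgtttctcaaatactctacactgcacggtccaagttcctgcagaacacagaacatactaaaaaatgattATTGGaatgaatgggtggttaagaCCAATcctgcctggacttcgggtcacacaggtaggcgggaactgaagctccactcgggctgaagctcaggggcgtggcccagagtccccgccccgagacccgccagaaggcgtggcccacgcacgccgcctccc
The stretch shown for Amt lies within the 406 bases that separate it from Nicn1. Nicn1 carries CCAAT on the opposite strand at 107 and 46 bases upstream of its start, and Amt carries 1 copy on its own strand at 210 bases upstream. In windows of 300 bases, reaching 50 bases past the start, 7 of the 8 genes had CCAAT on either strand, with Lias the exception. Lipt1 had 3 such windows and every other member 1, so that 7 of 10 windows held CCAAT, against 37.4% of all 32851 RefSeq promoter windows. CACGTG was found at Lipt1, the NRF1 palindrome at Dld and TGATGNAA at none, searched on both strands, and these 3 motifs occur in 7.15%, 4.60% and 3.97% of all windows. Such matches describe the letters of these windows and no more.

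The 8 genes spanned a wide range of levels. Dld was highest with a mean of 84.4 FPKM over the 6 samples, followed by Gcsh at 50.9 and Lias at 29.7 FPKM, and 89.8%, 82.5% and 70.0% of the 10597 tested genes had a lower mean. Nicn1 (5.67 FPKM), Lipt1 (4.29 FPKM) and Lipt2 (3.32 FPKM) formed a middle group. Amt (0.541 FPKM) and Gldc (0.257 FPKM) had a mean under 1 FPKM and are reported as low. The transcripts of the H and L proteins were thus far above those of the T and P proteins in every sample. In parental cells the sample ranges of neighbouring genes in this order did not overlap. In M8 those of Nicn1 and Lipt1, of Lipt1 and Lipt2, and of Amt and Gldc overlapped, so that the order of these pairs was not resolved there. Amt exceeded Gldc in 5 of 6 samples, by little in M8 replicate 2 (0.275 against 0.273 FPKM), and was below it in M8 replicate 3.

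**Figure D1:**
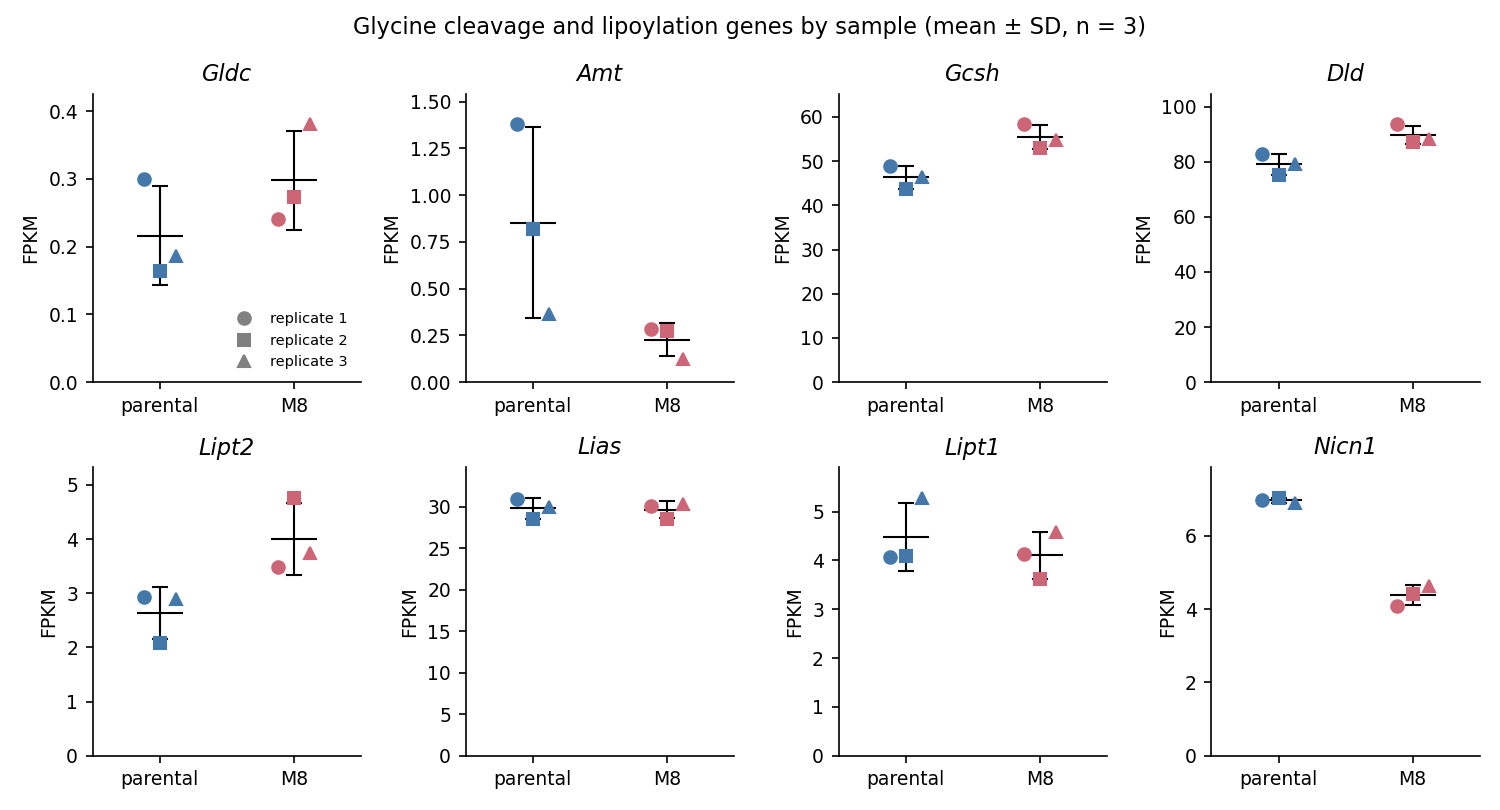
FPKM (vertical axes, each from 0) of the 8 genes in 3 parental and 3 M8 samples. Points are samples, with replicate numbers by symbol, horizontal lines are means and bars are 1 SD. Amt and Nicn1 were lower in every M8 sample than in every parental sample, and Gcsh, Dld and Lipt2 were higher.

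Of the 6 members with a mean of at least 1 FPKM, which were tested, 3 rose in M8 (Gcsh, Dld and Lipt2), 1 fell (Nicn1) and Lias and Lipt1 did not pass, at an adjusted p below 0.1 by limma with Benjamini-Hochberg adjustment over 10597 genes. Over all genes tested, 21.2% were called higher and 16.5% lower, 37.7% in either direction, and the samples of the lines did not overlap for 45.2%. With so large a share of all genes called, these counts do not set the members apart. Without M8 replicate 1 the counts were also 3 and 1. The study calls the samples of a line biological replicates, and neither it nor the labels say whether they were separate cultures, so p-values measure the spread between these samples. Calling depended on how samples were scaled: 2250 genes were higher and 1745 lower with FPKM as deposited, 1658 and 2209 after rescaling to TPM, and 1157 and 3236 after upper-quartile scaling. The median log2 fold change of all tested genes moved only from 0.0069 to -0.028 and -0.072, and the direction of the 4 called members held under each of these scalings.

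Amt, the T protein, was read at 1.38, 0.820 and 0.363 FPKM in parental replicates 1 to 3 and at 0.283, 0.275 and 0.126 FPKM in M8 replicates 1 to 3. Every M8 sample was below every parental sample, but parental replicate 3 lay close to the upper M8 samples and the parental samples differed among themselves. The means were 0.854 ± 0.509 FPKM in parental and 0.228 ± 0.0886 FPKM in M8 (SD, n = 3), 3.75-fold lower in M8. The difference in log2(FPKM + 1) was -0.56, with a two-sided exact permutation p = 0.1, the smallest that 3 against 3 samples can give. Its size was -0.36 without parental replicate 1, and -1.43 with all samples at a pseudocount of 0.1. Amt was below the filter of the main test, and when all 24346 genes were fitted without a filter its limma adjusted p was 0.297. The lower level of Amt was therefore without overlap between the lines but did not pass a test across genes.

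The depth behind these values is small. A library adds the same amount to a gene's FPKM with every read, and the steps so found for Amt correspond to 39, 22 and 11 reads in parental cells and to 7, 6 and 3 reads in M8. The exact Poisson 95% intervals, which cover counting error only, ran from 27.7 to 53.3, 13.8 to 33.3 and 5.49 to 19.7 reads in parental cells and from 2.81 to 14.4, 2.2 to 13.1 and 0.619 to 8.77 reads in M8. The intervals of parental replicates 1 and 3 did not overlap each other, so the parental samples differed by more than counting error for Amt. Summed over a line, 72 reads in parental and 16 in M8 gave a ratio per depth of 0.269 (95% interval 0.146 to 0.468), that is 3.71-fold lower. Intervals of pooled reads, here and below, also cover counting error only and are too narrow where replicates differ by more than that. Leaving out 1 library at a time gave ratios from 0.205 without parental replicate 3 to 0.393 without parental replicate 1. Without M8 replicate 1, the sample with hepatocyte transcripts, the ratio was 0.234 and the difference in log2(FPKM + 1) was -0.59.

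Gldc, the P protein, was at 0.299, 0.164 and 0.186 FPKM in parental and at 0.241, 0.273 and 0.380 FPKM in M8 samples. The lines overlapped, with parental replicate 1 above M8 replicates 1 and 2. The means were 0.216 ± 0.0727 and 0.298 ± 0.0731 FPKM (SD, n = 3), the difference in log2(FPKM + 1) was 0.094 (two-sided exact permutation p = 0.3), and the adjusted p in limma without a filter was 0.622. The recovered reads were 27, 14 and 18 in parental and 19, 19 and 29 in M8, with a ratio per depth of 1.38 (95% interval 0.956 to 1.99). Without M8 replicate 1 the difference was 0.13 and the ratio 1.52. With 1 sample left out at a time the difference ran from 0.049 to 0.14, and with all samples at a pseudocount of 0.1 it was 0.34. A difference was not detectable for Gldc at this depth. RefSeq places the pseudogene Rpl31-ps20 within Gldc on the opposite strand (chromosome 19, 30098441 to 30175441), and whether the counting used strand is not given in the sources used here.

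**Figure D2:**
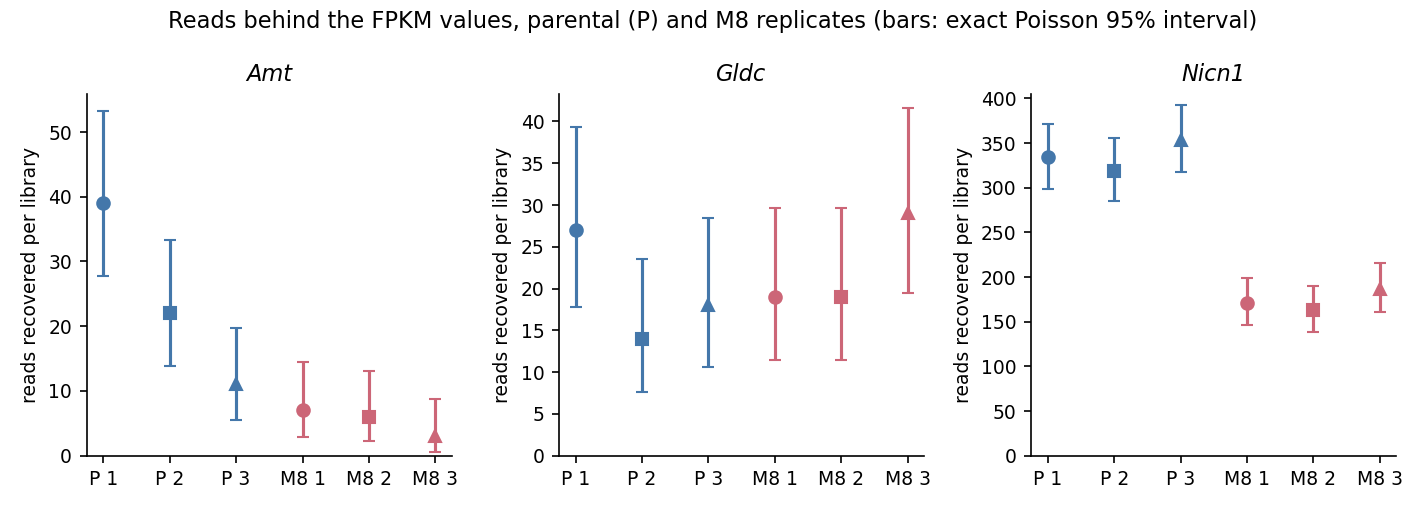
Reads behind the FPKM values of Amt, Gldc and Nicn1 (vertical axes, reads per library) in parental (P) and M8 replicates, with exact Poisson 95% intervals as bars. Amt rested on 3 to 39 reads, Gldc on 14 to 29 and Nicn1 on 163 to 354.

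Gcsh, the H protein (chromosome 8, 116981967 to 116993498), was at 48.9, 43.7 and 46.4 FPKM in parental samples and at 58.3, 53.0 and 54.8 FPKM in M8. All M8 samples were above all parental samples. Gcsh rose by 0.25 ± 0.054 (SE) on the log2(FPKM + 1) scale (limma adjusted p = 0.00816), 19.6% in mean FPKM. Dld, the L protein (chromosome 12, 31331562 to 31351471), was at 82.8, 75.3 and 79.1 FPKM in parental samples and at 93.5, 87.2 and 88.3 FPKM in M8. The lines again did not overlap, and Dld rose by 0.18 ± 0.048 (limma adjusted p = 0.0214), 13.4% in mean FPKM. M8 replicate 1 was the highest sample for both genes. Without it Gcsh rose by 0.22 (limma adjusted p = 0.0413) and Dld by 0.15 (limma adjusted p = 0.0891). The call for Dld did not hold under upper-quartile scaling (0.094, adjusted p = 0.199), under quantile normalization (0.086, adjusted p = 0.222) or without a filter (adjusted p = 0.130), whereas that for Gcsh held under all 3 (adjusted p = 0.0536, 0.0455 and 0.0945). Both genes belong to the folate genes that the study picked as increased on these same samples, so their direction is not independent evidence. Within a sample, the ratio of Gcsh to Dld was 0.586 ± 0.00493 in parental and 0.618 ± 0.00806 in M8 (SD, n = 3), without overlap and with no test. A ratio within a sample does not change with its scaling.

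Among the genes for the lipoyl group, Lipt2, the octanoyltransferase (chromosome 7, 100159277 to 100160931), was at 2.94, 2.08 and 2.88 FPKM in parental and at 3.49, 4.76 and 3.75 FPKM in M8. The M8 samples were all above the parental samples, with M8 replicate 2 the highest. Lipt2 rose by 0.46 ± 0.125 (SE) on the log2(FPKM + 1) scale (limma adjusted p = 0.0229), and its mean FPKM was 1.52 times the parental one. The recovered reads, 76, 51 and 80 in parental and 79, 95 and 82 in M8, gave a ratio per depth of 1.5 (95% interval 1.24 to 1.81). The call held in all 6 fits that left out a sample (highest adjusted p = 0.0827) and was lost when all genes were fitted without a filter (adjusted p = 0.205). RefSeq lists the long noncoding RNA Gm51452 over Lipt2. Its strand was not found in the annotation used here, and whether its reads were kept apart from those of Lipt2 is not known.

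Lias, the lipoyl synthase (chromosome 5, 65391497 to 65410423), was at 31.0, 28.5 and 30.0 FPKM in parental and at 30.1, 28.5 and 30.4 FPKM in M8. The lines overlapped fully, and the log2 fold change was -0.0065 ± 0.049 (SE, limma adjusted p = 0.933). Lipt1, the lipoyltransferase (chromosome 1, 37871738 to 37876228), was at 4.08, 4.08 and 5.28 FPKM in parental and at 4.13, 3.61 and 4.58 FPKM in M8. These also overlapped, with a log2 fold change of -0.099 ± 0.106 (SE, limma adjusted p = 0.509) and a ratio of reads per depth of 0.914 (95% interval 0.794 to 1.05). Lipt1 overlaps Mitd1 on the opposite strand in RefSeq. The ratio of Lipt2 to Lipt1 within a sample was 0.720, 0.509 and 0.546 in parental and 0.846, 1.32 and 0.818 in M8, without overlap. The ratio of Gcsh, the carrier, to Lias, which acts on its octanoyl arm, was 1.55 ± 0.0234 in parental and 1.87 ± 0.0653 in M8 (SD, n = 3), also without overlap. No test was run on these ratios of members or on those below to other genes, apart from the ratios to Amt.

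Nicn1, the neighbour upstream of Amt, was at 6.98, 7.03 and 6.90 FPKM in parental and at 4.08, 4.41 and 4.62 FPKM in M8. The parental samples lay within a narrow band and all M8 samples were well below it. The means were 6.97 ± 0.0653 and 4.37 ± 0.272 FPKM (SD, n = 3), 1.59-fold lower in M8. Nicn1 fell by 0.57 on the log2(FPKM + 1) scale (SE 0.065, limma adjusted p = 0.000597), and 87 of the 10597 tested genes, Nicn1 included, had a log2 fold change as low or lower. The recovered reads were 334, 319 and 354 in parental and 171, 163 and 187 in M8, a ratio per depth of 0.627 (95% interval 0.563 to 0.698). Without M8 replicate 1 it fell by 0.53 (limma adjusted p = 0.00542). Nicn1 passed in every alternative run, with log2 fold changes from -0.66 to -0.52 and a highest adjusted p of 0.0160 without a filter, and it was the only member called lower.

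The genes on the far side of Amt did not pass. Tcta was at 12.3, 13.1 and 14.1 FPKM in parental and at 10.7, 13.1 and 11.4 FPKM in M8, which overlap (log2 fold change -0.16 ± 0.079, SE, limma adjusted p = 0.162). Its pooled reads, 1431 in parental and 1044 in M8, gave a ratio per depth of 0.884 (95% interval 0.816 to 0.959). That interval, which covers counting error only, also lies below 1. Rhoa, a small GTPase gene, had a log2 fold change of -0.060 ± 0.053 (SE, limma adjusted p = 0.428). Within a sample, the ratio of Nicn1 to Tcta was 0.531 ± 0.0409 in parental and 0.375 ± 0.0350 in M8 (SD, n = 3), without overlap. Along this stretch, the M8 samples were thus below the parental ones without overlap for Nicn1 and Amt and not for Tcta. Of the 3 genes of this stretch in the main test, Nicn1 passed and Tcta and Rhoa did not. Whether some reads given to one of these adjacent genes come from the other was not tested.

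**Figure D3:**
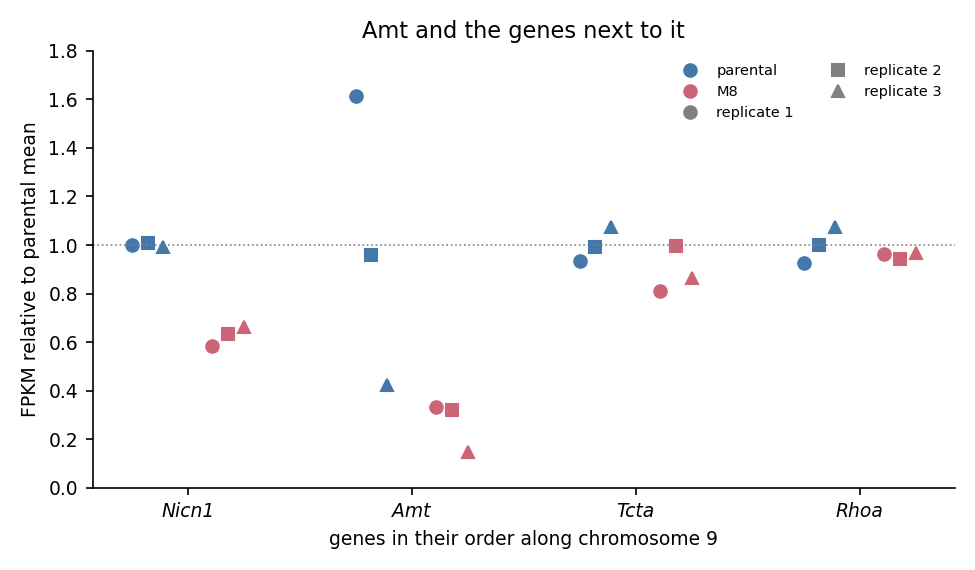
FPKM of Nicn1, Amt, Tcta and Rhoa relative to the parental mean of each gene (vertical axis, from 0; dotted line at 1), in their order on chromosome 9. Points are samples. The M8 samples of Nicn1 (4.08 to 4.62 FPKM) and of Amt (0.126 to 0.283 FPKM) lie below all parental samples, and those of Tcta overlap with them.

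The level of each gene relative to Amt was taken within each sample as log2((FPKM + 1) / (Amt FPKM + 1)), which does not depend on sample scaling apart from the pseudocount. For Nicn1 it was 1.75, 2.14 and 2.53 in parental and 1.99, 2.09 and 2.32 in M8, which overlap, with a difference of -0.0094 (two-sided exact permutation p = 1). This near equality rests on the pseudocount of 1, which compresses the low values of Amt: with a pseudocount of 0.1 the difference was 0.77. Relative to Amt, the M8 samples were higher without overlap for Gcsh by 0.81, for Dld by 0.74, for Gldc by 0.65, for Lias by 0.55 and for Lipt2 by 1.02, each with a two-sided exact permutation p = 0.1, the smallest possible. These sizes too depend on the pseudocount, and at 0.1 they were 1.69, 1.61, 1.77, 1.42 and 2.02. Amt itself differed by -0.56 in log2(FPKM + 1), and that fall enters each of these differences. Lias by itself differed by only -0.0065, and no difference was detectable for Gldc by itself. How many of all genes would be without overlap relative to Amt was not computed, so these separations do not set the members apart. Lipt1 overlapped (0.46, two-sided exact permutation p = 0.3). Shmt2, the mitochondrial serine hydroxymethyltransferase that forms the same folate product from serine, was higher relative to Amt by 1.17 (two-sided exact permutation p = 0.1). Without M8 replicate 1 the differences were 0.063 for Nicn1, 0.81 for Gcsh, 0.74 for Dld, 0.72 for Gldc, 0.58 for Lias, 0.49 for Lipt1, 1.13 for Lipt2 and 1.15 for Shmt2. These 8 ratios share Amt as their denominator and are not independent of each other. Their p-values were not adjusted, and as none can be below 0.1, none could pass at p below 0.1 with or without adjustment.

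**Figure D4:**
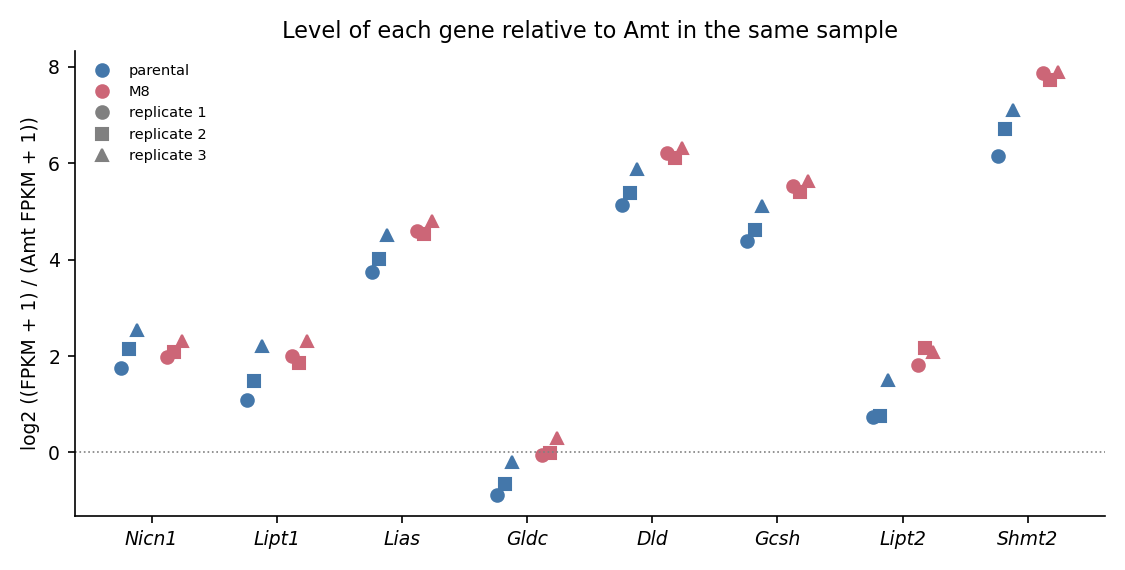
Level of 8 genes relative to Amt in the same sample, as log2((FPKM + 1) / (Amt FPKM + 1)) (vertical axis). Points are samples. M8 and parental samples overlap for Nicn1 and Lipt1 and not for the other 6 genes. Amt, the shared denominator, was itself lower in every M8 sample than in every parental sample.

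The partners of the pathway were taken as 45 further genes in 5 lists, of which 43 were tested. In M8, 14 rose, 4 fell and 25 did not pass, with a median log2 fold change of 0.081 against 0.0069 over all genes tested. The shares called over all genes tested were the 21.2% higher and 16.5% lower given above, 37.7% together, to which the 18 of 43 called here are close. Under upper-quartile scaling 7 rose and 7 fell, without a filter 9 rose and none fell, and without M8 replicate 1 the counts were 11 and 3.

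Of 13 genes for glycine and mitochondrial one-carbon supply, 11 were tested, 7 rose and 1 fell, with a median log2 fold change of 0.30. Shmt2 was at 169, 189 and 188 FPKM in parental and at 297, 269 and 267 FPKM in M8 and rose by 0.61 ± 0.058 (SE, limma adjusted p = 0.000261). Gcat, which forms glycine from the breakdown of threonine, rose by 0.60 (limma adjusted p = 0.00132), and Slc6a9, a plasma membrane glycine transporter, rose by 0.40 (limma adjusted p = 0.000644). Mthfd1l, which makes formate in mitochondria, rose by 0.42 (limma adjusted p = 0.00132). Aldh1l2, which oxidizes the formyl group of 10-formyl tetrahydrofolate and is named here after its value was seen, fell by 0.15 (limma adjusted p = 0.0420). Its call was lost without M8 replicate 2 (limma adjusted p = 0.141), without M8 replicate 3 (0.121) and without a filter (0.183). The count of 7 was 5 to 7 in the alternatives. Shmt2, Mthfd2 and Mthfd1l are among the folate genes the study picked on these samples, so the count of this list is not independent evidence of its direction. Tdh and Dmgdh, listed at 0 or close to it, were not tested. The ratio of Shmt2 to Gcsh within a sample was 3.94 ± 0.450 in parental and 5.02 ± 0.130 in M8 (SD, n = 3), without overlap.

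Of 10 other components of the complexes that carry lipoyl groups, 3 rose, 1 fell and 6 did not pass, with a median of -0.0058. These calls depended on the scaling: under upper-quartile scaling none of the 10 rose and 2 fell, and without a filter 1 rose and none fell. Pdhb and Pdhx of the pyruvate dehydrogenase complex rose by 0.20 and 0.22 (limma adjusted p = 0.0110 and 0.0207), and Dlst, the lipoyl carrier of the 2-oxoglutarate dehydrogenase complex, rose by 0.20 (limma adjusted p = 0.0232). Bckdha of the branched-chain complex fell by 0.24 (limma adjusted p = 0.0222). Dlat and Dbt, the lipoyl carriers of the pyruvate and branched-chain complexes, had log2 fold changes of 0.0030 and 0.18 and did not pass (limma adjusted p = 0.972 and 0.223). Among the 5 lipoyl carriers, Gcsh, Pdhx and Dlst rose, and Dlat and Dbt did not pass. The calls of Pdhx and Dlst were lost without a filter (limma adjusted p = 0.127 and 0.168). They were also lost under upper-quartile scaling (limma adjusted p = 0.111 and 0.108). Over all genes tested, 21.2% were called higher and 16.5% lower, and counts among so few genes do not set the carriers or this list apart.

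Of 7 genes of mitochondrial fatty acid synthesis, which supplies the octanoyl group, 2 rose, 1 fell and 4 did not pass, with a median of 0.021. Mcat, the malonyl transferase, rose by 0.24 (limma adjusted p = 0.00973), and Ndufab1, the acyl carrier protein, rose by 0.20 (limma adjusted p = 0.0223). Hsd17b8 (listed under its older symbol H2-Ke6), a subunit of the ketoacyl reductase, was at 20.9, 22.1 and 29.4 FPKM in parental and at 16.8, 19.4 and 18.4 FPKM in M8 and fell by 0.38 (limma adjusted p = 0.0309), a call lost without M8 replicate 1 (adjusted p = 0.119) and without a filter (adjusted p = 0.281). The call of Ndufab1 was lost without a filter and under quantile and upper-quartile scaling. Of 13 genes for iron-sulfur clusters, on which Lias depends, 2 rose and 11 did not pass, with a median of 0.041. Glrx5, a carrier of such clusters, was at 41.8, 43.2 and 47.3 FPKM in parental and at 62.4, 64.7 and 56.9 FPKM in M8 and rose by 0.47 (limma adjusted p = 0.00102). Iba57, a late assembly factor, rose by 0.26 (limma adjusted p = 0.0677), a call lost in 5 of the 6 fits that left out a sample (adjusted p = 0.105 to 0.170), all but that without M8 replicate 3. It was also lost under TPM (adjusted p = 0.102), with the replicate block (adjusted p = 0.106) and under upper-quartile scaling (adjusted p = 0.136), and Iba57 was left out by a filter at a mean FPKM of 5. Sirt4, a mitochondrial sirtuin that can remove lipoyl groups, fell by 0.35 (limma adjusted p = 0.0324), a call lost without M8 replicate 3 (adjusted p = 0.104) and without a filter (adjusted p = 0.232), while Slc25a26, the mitochondrial carrier of S-adenosylmethionine, had a log2 fold change of 0.11 (limma adjusted p = 0.439).

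**Figure D5:**
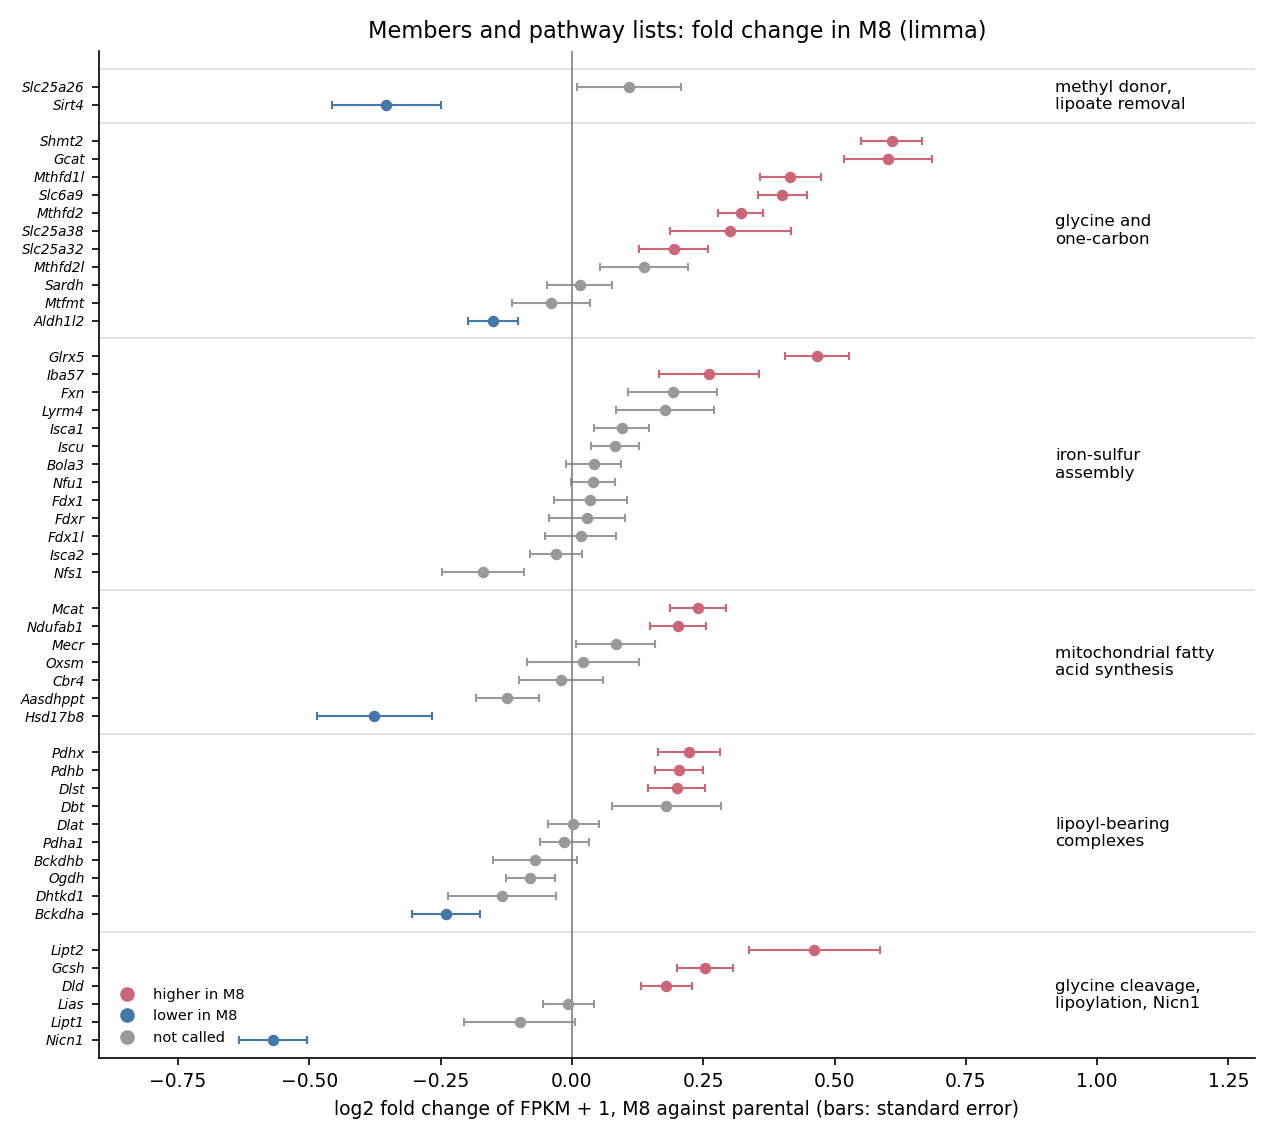
Log2 fold change of FPKM + 1, M8 against parental (horizontal axis; bars, SE from limma), for the 6 tested members (bottom block) and the 43 tested genes of the 5 lists. Red marks genes called higher in M8, blue lower and grey neither. Of the genes shown, Nicn1 is the lowest at -0.57 and Shmt2 the highest at 0.61.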

How the data were processed

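RNA of 3 parental and 3 M8 samples, grouped by their labels, was sequenced. The values are FPKM as deposited: the authors made stranded mRNA libraries, mapped single reads to the mouse genome and computed FPKM, and the submitters' processing notes name TopHat2 2.1.1, Bowtie2 2.2.8, SAMtools 0.1.18 and Cuffdiff 2.2.1. The study's methods name Cufflinks in place of Cuffdiff and another TopHat version, and which made the deposited values is not settled here. The gene annotation and the strand setting are not given in the sources used here. FPKM are not counts, so the study's count test was not repeated. The values tested were log2(FPKM + 1) of 10597 genes, those whose mean FPKM reached 1 or more. The fit used limma 3.58.1 under R 4.3.3 (eBayes with trend, no covariates, Benjamini-Hochberg, adjusted p below 0.1), a fit tested on simulated data. Single values were compared with exact two-sided permutation tests.

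Whole reads were recovered where the 6 values of a gene were multiples of 1 step, within 0.03 reads, which held for 2597 of 2982 low genes (87.1%). The coarsest such step was taken, so the true reads may be a whole multiple. No step was found for Gcsh, Dld or Lias. Replicates differed by more than counting noise (chi-square per gene 2.86 to 3.67), so none was a copy of another. Whether some were separate libraries of 1 culture cannot be told from this.

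The members, lists and tests were chosen with earlier results of these data known. Genes named are the 8 members, up to 4 called genes per list with the largest change, the other lipoyl carriers, Shmt2, and genes within 20 kb of Amt. Aldh1l2, Mthfd2, Slc25a26, Tdh and Dmgdh lie outside this rule and were named after their values were seen. Alternatives were pseudocounts of 0.1 and 0.5, no filter, a filter at a mean FPKM of 5, TPM, median centring, upper-quartile and quantile scaling, eBayes without trend, a replicate block and each sample left out. The comparison of recovered reads was added after seeing the data. Other software was Python 3.11.15 with matplotlib 3.10.9, scipy 1.17.1 and pandas 2.3.3.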

Additional observations from a re-analysis of the deposited data

How the results depend on the processing

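Of the members, 1 was called lower in all 16 alternatives and 3 higher in 12. The higher count was 2 under upper-quartile scaling and quantile normalization, which lost Dld, 2 with a filter at a mean FPKM of 5, which left Lipt2 out, and 1 (Gcsh) without a filter, which tests 24346 genes. Over the lists, 14 higher and 4 lower became 9 and 0 without a filter and 7 and 7 under upper-quartile scaling. Leaving out 1 sample gave 11 to 14 higher and 2 to 5 lower, with 2 lower without M8 replicate 3. Lias, near 0, turned to 0.021 without M8 replicate 2 and 0.020 without parental replicate 1 (range -0.038 to 0.021), and Lipt1 to 0.0029 without parental replicate 3 (range -0.17 to 0.0029). Low values depended on the pseudocount: the log2 difference of Amt, -0.56 at a pseudocount of 1 (-0.76 to -0.36 with 1 sample left out), was -1.43 at 0.1 and -1.89 from recovered reads (-2.29 to -1.35 with 1 library left out). That of Gldc, 0.094 at 1 (0.049 to 0.14), was 0.34 at 0.1 and 0.46 from recovered reads (0.24 to 0.76). At a pseudocount of 0.1 the differences relative to Amt were 0.77 for Nicn1, 1.69 for Gcsh, 1.61 for Dld, 1.77 for Gldc (0.99 at 0.5), 1.42 for Lias, 1.31 for Lipt1, 2.02 for Lipt2 and 2.04 for Shmt2. At the pseudocount of 1, with 1 sample left out, these differences ran from -0.21 to 0.19 for Nicn1, 0.65 to 1.02 for Gcsh, 0.58 to 0.94 for Dld, 0.50 to 0.84 for Gldc, 0.38 to 0.76 for Lias, 0.21 to 0.77 for Lipt1, 0.89 to 1.28 for Lipt2 and 0.92 to 1.40 for Shmt2. Samples of the same number did not deviate together (r = 0.10, -0.11 and -0.033 across genes) and share only a number. With the replicate number as a block, 2171 genes were higher and 1688 lower, the members stayed at 3 and 1, and the lists were at 13 and 4. The small number of reads limits the precision for Amt and Gldc.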

Other observations

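Hepatocyte transcripts in M8 replicate 1 went beyond Alb. Ttr was at 0.757 FPKM (17 reads) there and at most 0.0822 FPKM (2 reads) in the other 5 samples, Apoa1 was at 5.08 FPKM against 1.24 to 2.27 FPKM, and Cps1 was at 0.0254 FPKM against at most 0.00781 FPKM. In that sample Amt and Gldc, at 0.283 and 0.241 FPKM, lay within the range of the other samples. Gcsh, Dld and Shmt2, at 58.3, 93.5 and 297 FPKM, were each at their highest there. The part of the hepatocyte transcripts in the comparisons was not tested beyond leaving the sample out.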
